A study of Rattus norvegicus with 9 samples.

Results

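Genes of gluconeogenesis and glucose use were followed in rat liver 24 h after total-body irradiation (TBI). The list of 9 genes held Pck1, G6pc, Fbp1, Ppargc1a, Pklr, Slc2a2, Irs2, Foxo1 and Pfkfb3. A probe belonged to a gene when its RefSeq accession on the array carried that gene's symbol or a synonym, and G6pc is also named G6pc1. By this rule 8 of the 9 genes were found, with 15 probes of the 41012 on the array, among 13438 named genes with a probe. Foxo1, a transcription factor that insulin signalling keeps out of the nucleus, had no matched probe and was not analysed here. All 15 probes passed the filter on dim signals, which left 25369 probes and 9604 named genes.

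Livers of 9 male Wistar rats were measured on 9 one-colour Agilent arrays, 1 rat per array and 3 rats per group. Control rats received 0 Gy. Rats of the TBI group received 6.5 Gy at 2 Gy/min from a cobalt source. Rats of the HSC + TBI group were given Hong Shan Capsule (HSC), a mixture of medicinal herbs, by gavage on 3 days in a row before the same exposure. The HSC dose reads 10 g/kg/day in the series description and 30 mg/kg/day in the sample labels. HSC without irradiation was not analysed here, so all HSC rats were irradiated too, and the ages of the rats, their feeding state and the hour of sacrifice were not given in the sources used here.

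The liver releases glucose when food is scarce and takes it up when food is plentiful. Gluconeogenesis builds glucose from lactate, glycerol and amino acids, and runs opposite to glycolysis through a few steps with enzymes of their own. Glucagon and glucocorticoids raise the genes of the glucose-making steps, insulin lowers them, and glucose and insulin together raise the gene of liver pyruvate kinase. The control of the enzyme genes lies in large part in their promoters, 3 of which are shown. The 3 were picked because their genes behaved differently in these rats, so they cannot link letters to signals. The sequences are those of RefSeq on assembly GRCr8, 300 bases each, and run from 250 bases before to 50 bases after the transcript start. Capitals mark the letters TGACG, the core of the cAMP response element, or CAAAACA, an insulin response sequence. Both matches lie on the opposite strand and are therefore printed as CGTCA and TGTTTTG.
Pck1, chr3:182348322-182348621, plus strand: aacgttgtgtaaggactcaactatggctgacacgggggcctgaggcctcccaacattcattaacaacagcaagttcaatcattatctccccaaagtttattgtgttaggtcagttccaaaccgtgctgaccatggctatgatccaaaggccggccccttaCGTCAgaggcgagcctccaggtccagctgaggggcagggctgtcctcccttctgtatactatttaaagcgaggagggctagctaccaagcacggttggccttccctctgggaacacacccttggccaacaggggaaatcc
G6pc1, chr10:86807409-86807708, plus strand: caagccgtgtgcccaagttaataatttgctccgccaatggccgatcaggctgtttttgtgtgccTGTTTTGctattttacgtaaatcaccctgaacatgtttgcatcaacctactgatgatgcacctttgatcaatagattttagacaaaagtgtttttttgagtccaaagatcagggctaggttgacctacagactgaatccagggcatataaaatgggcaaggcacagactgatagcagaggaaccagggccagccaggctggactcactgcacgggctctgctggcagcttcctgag
Pklr, chr2:176841014-176841313, plus strand: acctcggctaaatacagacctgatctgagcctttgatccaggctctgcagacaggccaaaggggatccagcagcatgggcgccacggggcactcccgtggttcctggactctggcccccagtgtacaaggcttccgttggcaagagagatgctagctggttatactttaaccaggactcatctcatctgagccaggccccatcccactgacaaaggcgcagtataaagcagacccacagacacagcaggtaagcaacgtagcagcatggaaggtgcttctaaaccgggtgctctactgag
The match in the Pck1 window begins at base -90 from the start, and that in the G6pc1 window at base -186. The Pklr window held neither of them, nor GTAAACA (a FOXO site), CACGTG (an E-box) or AGAACA (part of a glucocorticoid receptor site) on either strand. The Fbp1 and Foxo1 windows held none of these letters either, and no window was found for Irs2. Of the remaining members, Ppargc1a held TGACG, Slc2a2 AGAACA, and Pfkfb3 TGACG and CACGTG. Whether such letters bear on the signals was not tested. Among 33469 rat promoters of the same length, TGACG occurred in 21.2%, CAAAACA in 6.28%, GTAAACA in 3.78%, CACGTG in 6.42% and AGAACA in 20.7%. A match of letters is a description of the window and not a binding site. Only these exact letters were searched, so a window without them may still hold a variant of such a site.

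Signals are given as log2 of the normalised spot intensity, so that a difference of 1 is a doubling. They rank rats within a probe and not one gene against another. A gene with several probes was read from its brightest probe, and for the members and the called pathway genes the calls at other probes are given beside it. A gene was called changed at a Benjamini-Hochberg adjusted p under 0.05 over all 25369 probes, in limma's moderated test, together with a fold change of at least 1.5. The share of probes above background was 56.6% to 59.3% in the control arrays, 63.6% to 69.5% in the TBI arrays and 58.7% to 60.5% in the HSC + TBI arrays. Control arrays lay on 1 slide and TBI arrays on another, and the HSC + TBI arrays lay on the other 2 of the 4 slides. No slide held 2 groups, so slide and group cannot be told apart in any comparison. All 8 hepatocyte markers were above background on every array, and none was called in any comparison. The summed signal of the T and B cell markers, 6 of 8 with a probe, ran from 582 to 713 in control, 185 to 366 in TBI and 237 to 346 in HSC + TBI rats. Among them Cd2 was called higher in HSC + TBI than in TBI (5.55-fold, adjusted p = 0.0306), though above background on 0 TBI arrays and 1 HSC + TBI array. The erythroid sum ran from 1772 to 4358 in control, 893 to 2363 in TBI and 726 to 1462 in HSC + TBI rats, with no marker called. The stellate cell marker Lrat was called lower after TBI (adjusted p = 0.0237). The part of these shifts in the results on glucose genes was not tested. In whole liver, fewer cells of a type and less RNA per cell cannot be told apart.

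After TBI, the gene of the glucose-releasing enzyme rose and the gene of liver pyruvate kinase fell. G6pc was 1.82-fold higher and Pklr 2.33-fold lower in the TBI group than in control. The other 6 members did not pass the test with their brightest probe, among them Pck1 and Fbp1 of the earlier glucose-making steps. Thus 2 of the 8 members were called, 1 higher and 1 lower, where 7.79% of all tested named genes were called, 3.87% higher and 3.92% lower. The median difference of the members was -0.12 on the log2 scale, and that of all tested named genes was 0.01.

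**Figure D1:**
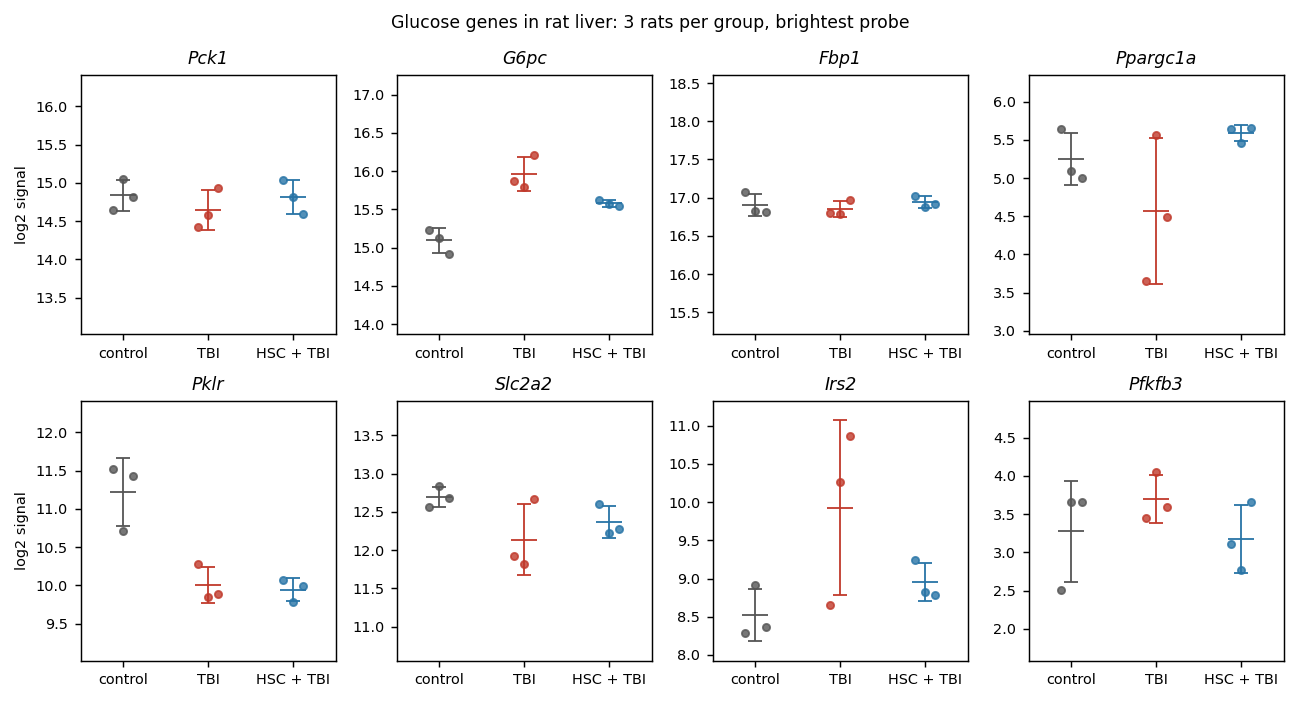
Normalised log2 signal of the brightest probe of each of the 8 measured genes (vertical axes, all spanning the same range) in the 3 rats of the control, TBI and HSC + TBI groups. Points are rats, long bars group means and whiskers 1 SD. All TBI rats lie above all control rats for G6pc and below them for Pklr, while Irs2 and Ppargc1a are spread widely within the TBI group.

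G6pc encodes the catalytic subunit of glucose-6-phosphatase, which frees glucose from glucose-6-phosphate at the end of both gluconeogenesis and glycogen breakdown. Control rats gave log2 signals of 15.24, 15.13 and 14.92. TBI rats gave 15.87, 15.80 and 16.21, and HSC + TBI rats 15.62, 15.57 and 15.54. The 3 groups did not overlap, with HSC + TBI between the others, and the HSC + TBI rats were the tightest group (SD 0.04, n = 3). The TBI rats were higher than control by 0.86 (SE 0.14, adjusted p = 0.0105), and such a separation upward was seen in 14.3% of all tested named genes. A second, dimmer probe gave a like difference of 1.01, or 2.02-fold (adjusted p = 0.00662). The call held when any single rat was left out, with differences of 0.74 to 0.94.

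Pklr encodes the liver form of pyruvate kinase, the last enzyme of glycolysis. Its log2 signals were 11.53, 10.72 and 11.42 in control rats, 10.28, 9.84 and 9.89 in TBI rats, and 10.06, 9.78 and 9.99 in HSC + TBI rats. Every irradiated rat, with or without HSC, lay below the lowest control rat, as 15.7% of the tested named genes did after TBI. The TBI group was lower by 1.22 (95% interval of the difference -1.73 to -0.71, adjusted p = 0.0159). Without 1 rat the difference ranged from -1.47 to -1.07, and leaving out control rat 3 or TBI rat 2 ended the call (adjusted p up to 0.0626).

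The genes of the earlier glucose-making steps gave no call. Pck1 encodes the cytosolic phosphoenolpyruvate carboxykinase, which commits oxaloacetate to glucose. Its log2 signals were 14.65, 15.05 and 14.82 in control, 14.43, 14.58 and 14.94 in TBI, and 15.04, 14.81 and 14.60 in HSC + TBI rats. The groups overlapped throughout, and the TBI difference was -0.19 (95% interval -0.60 to 0.23, adjusted p = 0.554). The second Pck1 probe gave -0.11 (adjusted p = 0.744). Fbp1 encodes fructose bisphosphatase, the enzyme that reverses the phosphofructokinase step. It read 17.07, 16.82 and 16.82 in control, 16.80, 16.79 and 16.97 in TBI, and 17.02, 16.88 and 16.92 in HSC + TBI rats. Those groups overlapped as well, with a TBI difference of -0.05 (95% interval -0.32 to 0.22, adjusted p = 0.818) and -0.16 at the second probe (adjusted p = 0.471).

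Slc2a2 encodes the transporter through which glucose enters and leaves hepatocytes, and its 2 probes disagreed on 1 rat. At the brighter probe, control rats gave 12.57, 12.83 and 12.68, TBI rats 11.92, 11.82 and 12.66, and HSC + TBI rats 12.61, 12.23 and 12.28. TBI rat 3 lay among the control rats there, and the TBI difference of -0.56 (1.48-fold lower) did not pass (adjusted p = 0.165). At the dimmer probe control rats gave 9.54, 9.60 and 9.64, TBI rats 8.90, 8.94 and 8.69, and HSC + TBI rats 9.31, 9.15 and 9.34. Here TBI rat 3 was the lowest of all, the groups did not overlap, and the difference of -0.75 (1.69-fold lower) was called (adjusted p = 0.00754). Separations below control were seen in 15.7% of the tested named genes after TBI and 16.9% after HSC + TBI. The brighter probe was called without TBI rat 3, at -0.83. With all rats, the mean over both Slc2a2 probes was called lower after TBI.

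Irs2 encodes an adaptor that the insulin receptor phosphorylates to pass on its signal in the liver. The brightest of its 4 probes read 8.29, 8.91 and 8.36 in control, 8.66, 10.26 and 10.86 in TBI, and 9.24, 8.83 and 8.79 in HSC + TBI rats. TBI rats 2 and 3 were the highest of the 9, but TBI rat 1 lay within the control range. The difference of 1.41, or 2.65-fold, therefore carried an SE of 0.49 and did not pass (95% interval 0.30 to 2.52, adjusted p = 0.116). Without TBI rat 1 it became 2.04 and was called. On the second probe TBI rat 1 was instead the highest, with 4.83, 5.36 and 4.91 in control, 6.25, 5.82 and 5.83 in TBI, and 5.59, 5.89 and 6.11 in HSC + TBI rats. That probe was called after TBI with a difference of 0.93 (1.9-fold, adjusted p = 0.0286).

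The third Irs2 probe was called too, with a TBI difference of 1.21 (2.31-fold, adjusted p = 0.0477), but it was above background on only 1 of the 3 control arrays. The fourth, above background on 1 control, 3 TBI and 1 HSC + TBI array, gave a difference of 1.05 that did not pass (adjusted p = 0.528), and HSC + TBI rat 3 read 7.42 on it against 4.04 and 3.03 in the other HSC + TBI rats. All 4 TBI differences were positive. The TBI arrays had the highest share of probes above background, and its part in the values of these dim probes was not tested. Counted by probe, 6 of the 15 member probes were called after TBI, where 7.25% of all tested probes were. These were 4 higher, from G6pc and Irs2, and 2 lower, from Pklr and Slc2a2, and probes of 1 gene are not independent of each other.

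**Figure D2:**
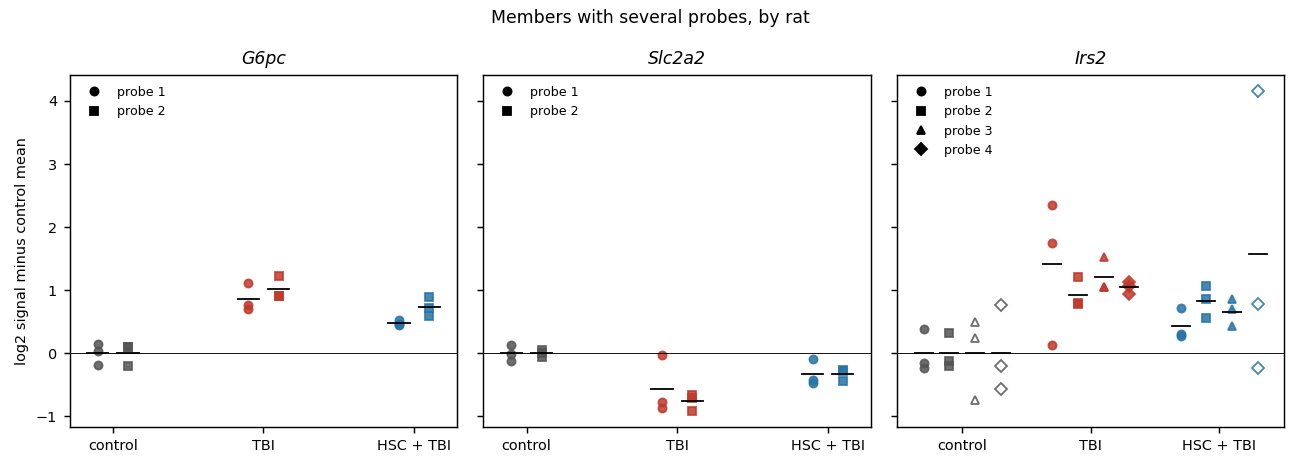
Log2 signal of each rat minus the control mean of the same probe (vertical axis) for G6pc, Slc2a2 and Irs2, with each probe as a symbol, group means as short bars and open symbols where a probe was not above background on all 3 arrays of the group. Both G6pc probes rose after TBI by 0.86 and 1.01, whereas the probes of Slc2a2 and Irs2 place TBI rats 3 and 1 differently.

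Both remaining members were dim. Ppargc1a encodes a transcriptional coactivator that fasting induces in liver and that acts on the gluconeogenic genes. It read 5.64, 5.10 and 5.0 in control, 3.66, 5.57 and 4.48 in TBI, and 5.64, 5.46 and 5.66 in HSC + TBI rats. TBI rat 1 was the lowest and TBI rat 2 lay within the control range, so that the difference of -0.68 did not pass (95% interval -1.62 to 0.27, adjusted p = 0.343). It was -0.22 without TBI rat 1 and -1.17 without TBI rat 2. Pfkfb3 encodes an enzyme that makes the activator of phosphofructokinase. Its probe was above background on all 3 TBI arrays and on no control or HSC + TBI array, so it was tested through the TBI group alone. Its signals were 2.51, 3.65 and 3.65 in control, 3.45, 4.05 and 3.59 in TBI, and 3.11, 2.77 and 3.65 in HSC + TBI rats. The groups overlapped, and neither TBI against control (adjusted p = 0.482) nor HSC + TBI against TBI (adjusted p = 0.504) passed. The dimmest signal well above background was itself lower on the TBI arrays, at 2.51 to 3.13, than on the control and HSC + TBI arrays, at 3.56 to 3.97.

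After HSC + TBI, Pklr was low against control, and G6pc passed at its dimmer probe alone. Pklr was 2.42-fold lower than control (difference -1.28, 95% interval -1.79 to -0.76, adjusted p = 0.0216). It was the 1 called gene of the 8 members, where 3.88% of all tested named genes were called, 2.71% lower, and the members' median difference was 0.01 beside 0.02 for all tested named genes. G6pc stood above control in all HSC + TBI rats, a separation that 17.6% of the tested named genes showed upward, but its brightest probe gave 0.48, or 1.4-fold, and did not pass (95% interval 0.16 to 0.81, adjusted p = 0.112). Its second probe passed with 11.81, 11.50 and 11.64 in HSC + TBI against 11.01, 11.02 and 10.71 in control rats, a difference of 0.74 (1.67-fold, adjusted p = 0.036). G6pc and Pklr thus gave 1 called probe each, 2 of 15 member probes, against 3.23% of all tested probes. As with TBI alone, all HSC + TBI rats lay below all control rats for Pklr, which 16.9% of the tested named genes did. The Pklr call was lost without control rat 1, control rat 3 or any single HSC + TBI rat (adjusted p up to 0.0931, differences -1.53 to -1.12).

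No other member passed against control. Pck1 differed by -0.02 (95% interval -0.43 to 0.40) and Fbp1 by 0.04 (95% interval -0.23 to 0.31) between HSC + TBI and control, and their second probes by 0.09 and -0.13 (adjusted p = 0.846 and 0.614). Slc2a2 differed by -0.32 at the brighter and by -0.33 at the dimmer probe (adjusted p = 0.479 and 0.163). Irs2 differed by 0.43 at its brightest probe (adjusted p = 0.678) and by 0.83 at the second (adjusted p = 0.0678). At the second probe all HSC + TBI rats lay above all control rats, as in 17.6% of the tested named genes. The other 2 Irs2 probes differed by 0.66 and 1.57 (adjusted p = 0.279 and 0.41). Ppargc1a differed by 0.34 (adjusted p = 0.702).

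Between the irradiated groups, none of the 8 members was called by limma, where 0.791% of all tested named genes were. At an unadjusted p under 0.05 there were 2, G6pc and Ppargc1a, where 15% of all tested named genes had such a p, and the methods' t-test called 0. None of the 15 member probes was called either, where 0.796% of all tested probes were. The members' median difference of HSC + TBI from TBI was 0.02, and that of all tested named genes was 0.02. G6pc was lower by 0.38 in HSC + TBI, or 1.3-fold (95% interval -0.71 to -0.05, adjusted p = 0.241), and its groups did not overlap, as in 11% of the tested named genes in that direction. Its second probe differed by -0.28 (adjusted p = 0.4). Ppargc1a was 2.02-fold higher (difference 1.02, 95% interval 0.07 to 1.96, adjusted p = 0.273), with TBI rat 2 inside the HSC + TBI range. That Ppargc1a difference was 0.56 without TBI rat 1 and 1.52 without TBI rat 2, and was not called in either case.

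Pklr differed between the irradiated groups by -0.06, with an interval of -0.57 to 0.46 (adjusted p = 0.923). For Irs2 the difference was -0.98 (95% interval -2.09 to 0.13, adjusted p = 0.37), and it was called at -1.61 without TBI rat 1. Its other 3 probes gave -0.10, -0.55 and 0.52 (adjusted p = 0.835, 0.425 and 0.821). The dimmer Slc2a2 probe differed by 0.42 (adjusted p = 0.135) and the brighter one by 0.24 with overlap (adjusted p = 0.64). At the dimmer one every HSC + TBI rat lay above every TBI rat, as in 10.3% of the tested named genes. Pck1 differed by 0.17 (95% interval -0.25 to 0.58) and Fbp1 by 0.09 (95% interval -0.18 to 0.36), and their second probes by 0.20 and 0.02 (adjusted p = 0.635 and 0.944). The TBI and HSC + TBI groups were compared with the same control rats, so their differences from control are not separate measurements.

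**Figure D3:**
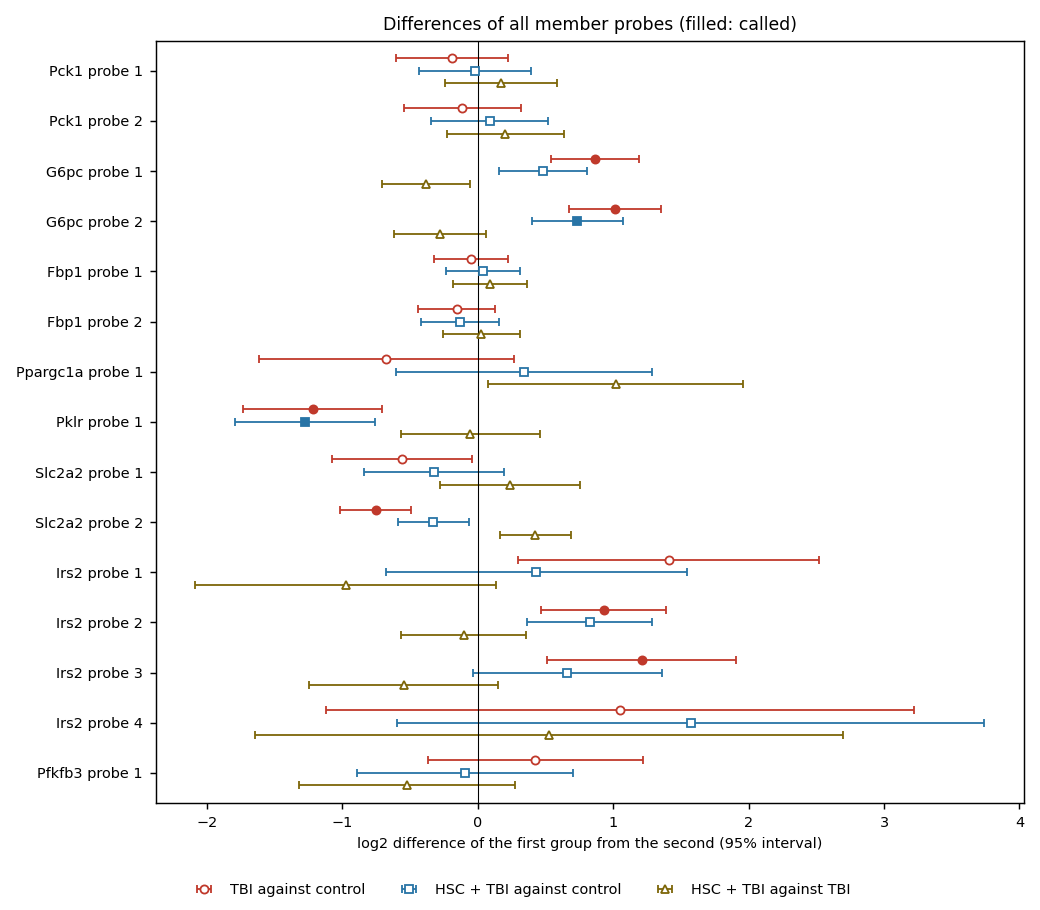
Log2 difference of the first named group from the second (horizontal axis) for all 15 probes of the 8 measured genes, with bars for the 95% interval and filled symbols for called probes. Called probes are those of G6pc, Pklr, Slc2a2 and Irs2 against control, and no probe is called between HSC + TBI and TBI.

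The wider glucose pathways were read from 94 further genes in 4 lists, of which 83 were tested. After TBI 11 of the 83 were called, 3 higher and 8 lower, and after HSC + TBI 2 were called against control, both lower. These were 13.3% and 2.41% of the 83, beside 7.79% and 3.88% of all tested named genes. Among the 34 tested enzymes of glycolysis and gluconeogenesis 5 were called after TBI, 1 higher and 4 lower. Of the 13 tested glycogen genes 2 were called lower, and in each of the lists of insulin and glucagon signalling (17 tested) and of transcription factors (19 tested) 1 was called higher and 1 lower. The medians of the 4 lists after TBI were -0.03, -0.11, -0.04 and -0.20 in that order. Between HSC + TBI and TBI limma called none of the 83, with 13 at an unadjusted p under 0.05 (15.7%, beside 15% of all tested named genes), and the methods' t-test called 6 unadjusted and 0 adjusted.

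Slc37a4 encodes the transporter that brings glucose-6-phosphate into the endoplasmic reticulum, where the G6pc enzyme acts on it. It read 15.00, 14.81 and 14.86 in control, 14.04, 13.70 and 13.67 in TBI, and 14.37, 14.38 and 14.25 in HSC + TBI rats. The 3 groups did not overlap and stood in the reverse order of G6pc. Of the tested named genes, 15.7% separated below control after TBI and 16.9% after HSC + TBI. TBI rats were lower by 1.09, or 2.12-fold (SE 0.13, adjusted p = 0.00305), HSC + TBI rats were lower than control by 0.56 (adjusted p = 0.0606), and HSC + TBI rats differed from TBI rats by 0.53 (adjusted p = 0.114), without overlap, as 10.3% of the tested named genes did in that direction. The TBI call held without any single rat, and a second probe was called after TBI too (-1.25, adjusted p = 0.0104).

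Ugp2 encodes the enzyme that makes UDP-glucose, the unit from which glycogen is built. Control rats gave 14.90, 14.85 and 14.21, TBI rats 13.38, 13.03 and 13.19, and HSC + TBI rats 13.74, 13.85 and 13.97. It fell after TBI by 1.45, or 2.74-fold (SE 0.20, adjusted p = 0.00463), and that call too held without any single rat. Both other Ugp2 probes were called after TBI, at -1.36 and -1.53 (adjusted p = 0.00845 and 0.0194), and not after HSC + TBI. HSC + TBI rats lay between the other groups without overlap, at a difference of -0.80 from control (adjusted p = 0.0669) and of 0.65 from TBI (adjusted p = 0.165). Of the tested named genes, 16.9% separated in this way below control and 10.3% above TBI. Gys2, the liver glycogen synthase, read 14.79, 15.10 and 14.65 in control, 14.02, 14.45 and 14.21 in TBI, and 13.86, 13.93 and 14.01 in HSC + TBI rats. Here the HSC + TBI rats were the lowest, with differences from control of -0.62 after TBI (adjusted p = 0.0468) and -0.92 after HSC + TBI (1.89-fold lower, adjusted p = 0.0189). The Gys2 call after TBI was lost in 8 of the 9 omissions of a rat, every one but that of TBI rat 2, and that after HSC + TBI without control rat 2 or any HSC + TBI rat. A second Gys2 probe was not called after TBI (-0.47, adjusted p = 0.162) and was called after HSC + TBI (-0.85, adjusted p = 0.0453).

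Gpi, the enzyme that interconverts the 6-phosphates of glucose and fructose, was lower in both irradiated groups, by 0.65 after TBI (adjusted p = 0.0147) and by 0.78 after HSC + TBI (1.72-fold, adjusted p = 0.0111). Its control rats read 12.55, 12.52 and 12.69, above the TBI rats at 11.84, 12.12 and 11.85 and the HSC + TBI rats at 11.85, 11.77 and 11.80. Of the tested named genes, 15.7% separated below control after TBI and 16.9% after HSC + TBI. Without control rat 3 both Gpi calls were lost, and without HSC + TBI rat 2 that after HSC + TBI. A second Gpi probe was called in both, at -0.78 and -0.76 (adjusted p = 0.00608 and 0.00992). Pfkm (the muscle form of phosphofructokinase) fell after TBI by 0.86 (adjusted p = 0.0484) and Eno3 (an enolase) by 0.63 (adjusted p = 0.0314). The Pfkm call was lost in 7 of the 9 omissions of a rat, all but those of control rat 2 and TBI rat 1, and the Eno3 call in 6, all but those of control rat 1, TBI rat 1 and HSC + TBI rat 2. Pdk4 encodes a kinase that shuts off pyruvate dehydrogenase and so spares pyruvate. It read 6.28, 8.44 and 7.76 in control, 9.04, 9.85 and 9.70 in TBI, and 8.18, 8.01 and 8.64 in HSC + TBI rats. TBI rats were 4.1-fold higher than control (difference 2.04, SE 0.49, adjusted p = 0.0414), and HSC + TBI rats, which overlapped control, differed from control by 0.78 (adjusted p = 0.43). The Pdk4 difference of HSC + TBI from TBI was -1.25 and did not pass (adjusted p = 0.26). The Pdk4 call was lost without control rat 3, TBI rat 2, TBI rat 3 or any HSC + TBI rat.

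Igfbp1, a secreted binding protein that insulin represses in liver, had the largest fold among the called pathway genes. Its signals were 10.65, 12.46 and 10.89 in control, 13.39, 14.07 and 14.33 in TBI, and 13.79, 12.78 and 13.91 in HSC + TBI rats. All irradiated rats were above all control rats. Such a separation upward was seen in 14.3% of the tested named genes after TBI and 17.6% after HSC + TBI. TBI rats were 6.04-fold higher (difference 2.60, SE 0.51, adjusted p = 0.0191), and HSC + TBI rats 4.48-fold higher without passing (adjusted p = 0.06). Leaving out control rat 1, control rat 3 or TBI rat 2 ended that call. Gcgr, the glucagon receptor, read 13.79, 14.09 and 14.12 in control, 13.45, 13.28 and 13.06 in TBI, and 13.37, 13.44 and 13.41 in HSC + TBI rats, without overlap with control. Gcgr fell after TBI by 0.74 (1.67-fold, adjusted p = 0.0177) and differed by -0.59 after HSC + TBI (adjusted p = 0.0618). The Gcgr call after TBI was lost without control rat 2 or 3. Separations below control were seen in 15.7% of the tested named genes after TBI and 16.9% after HSC + TBI.

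Among the transcription factors, Nr0b2 (also called SHP, a nuclear receptor without a DNA-binding domain that represses others) read 14.84, 14.12 and 15.05 in control, 12.92, 12.41 and 13.93 in TBI, and 14.03, 14.60 and 14.51 in HSC + TBI rats. It fell after TBI by 1.58, or 2.99-fold (adjusted p = 0.044), while HSC + TBI rats overlapped control (difference -0.29, adjusted p = 0.733). The Nr0b2 difference of HSC + TBI from TBI was 1.29 and did not pass (adjusted p = 0.169). Cebpb, a leucine-zipper factor of the liver's acute and fasting responses, rose after TBI by 0.76 (1.69-fold, adjusted p = 0.0356) and differed by 0.31 after HSC + TBI (adjusted p = 0.376). The Cebpb difference of HSC + TBI from TBI was -0.45 and did not pass (adjusted p = 0.26). The Nr0b2 call was lost in 7 of the 9 omissions of a rat, all but those of control rat 2 and TBI rat 3, and the Cebpb call in 8, all but that of TBI rat 2.

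**Figure D4:**
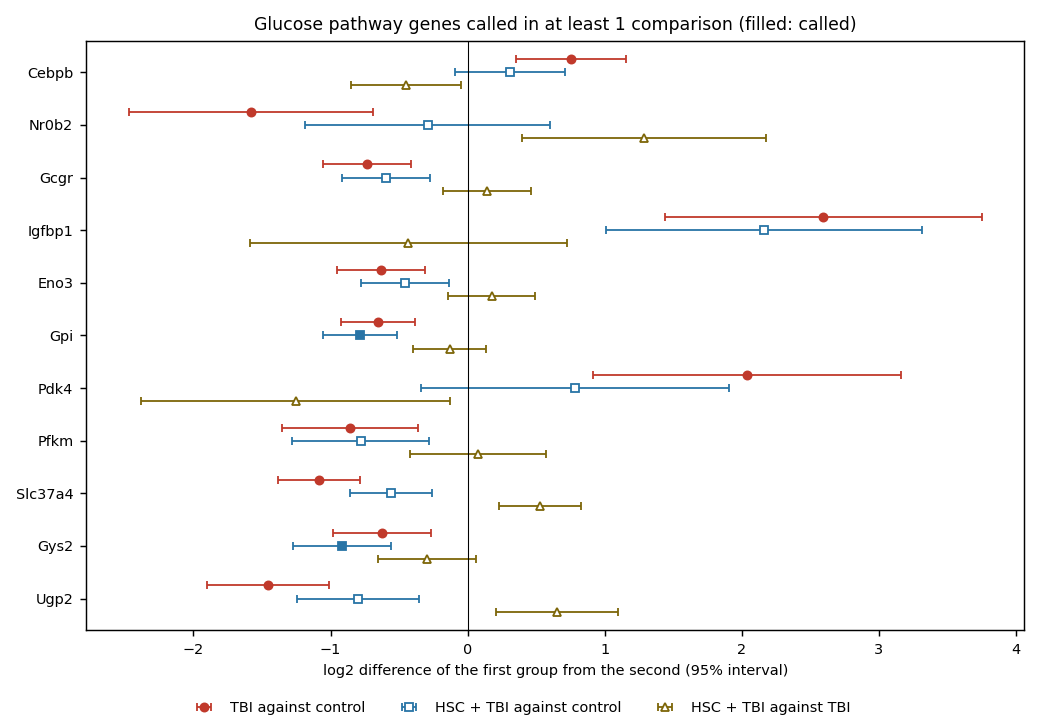
Log2 difference of the first named group from the second (horizontal axis) for the 11 pathway genes called in at least 1 comparison, with bars for the 95% interval and filled symbols for called differences. Igfbp1 and Pdk4 rise the most after TBI, by 2.60 and 2.04, and only Gys2 and Gpi are called after HSC + TBI.

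From each list, the uncalled gene with the smallest unadjusted p in any comparison is given next. Hk3, a hexokinase of myeloid cells, read 8.87, 9.50 and 9.37 in control, 8.64, 9.89 and 9.99 in TBI, and 7.24, 7.99 and 7.89 in HSC + TBI rats. The HSC + TBI rats lay below all control and all TBI rats, as 16.9% and 11% of the tested named genes did. They were lower by 1.54 than control (adjusted p = 0.0653) and by 1.8 than TBI (adjusted p = 0.0775). Both differences were called without TBI rat 1. The summed signal of the 7 macrophage and Kupffer cell markers was lowest in the same rats, at 64444 to 70001 against 88429 to 138052 in control and 92446 to 172755 in TBI rats, and none of the 7 was called. Its part in the Hk3 values was not tested. Ppp1r3c, a glycogen-targeting subunit of protein phosphatase, was higher by 1.09 after TBI and 1.10 after HSC + TBI (adjusted p = 0.0836 and 0.117). Creb1, the factor that binds the cAMP response element, was higher by 0.41 in both (adjusted p = 0.0486 and 0.0786), below the fold of 1.5. Foxa2, a factor that opens liver chromatin, was lower by 0.68 and 0.94 (adjusted p = 0.124 and 0.0783).

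The genes whose profile over the 9 arrays was most like those of the called members were found from the root mean square difference of centred log2 signals, among 9596 genes. Their like order of groups follows from this choice and is not a separate result. For G6pc they were Map4k4 (0.0844) and Lrrc4c (0.0933). Map4k4 read 9.01, 8.90 and 8.66 in control, 9.57, 9.63 and 9.75 in TBI, and 9.30, 9.29 and 9.37 in HSC + TBI rats, the same order of groups as G6pc. For Pklr they were Pfkm (0.242), itself a glycolytic gene, and Ankrd46 (0.255). Ankrd46 read 12.46, 12.21 and 12.31 in control, 10.94, 10.84 and 10.64 in TBI, and 11.06, 11.12 and 11.20 in HSC + TBI rats, low in both irradiated groups as Pklr was.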

How the data were processed

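Per the file headers, the authors read spot intensity with Agilent Feature Extraction 10.7.3.1, which gave a processed signal, raw and background intensities, and flags per spot (the sample notes name version 10.7). The authors then normalised by quantiles and deposited log2 values, 1 for each probe on an array; these served as an alternative and lay within 0.03 (median absolute difference) of the values used here. Whether an array spot was flagged well above background or as an outlier was taken from the deposited flags.

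Control spots and flagged outliers (84 to 115 of 43379 spots per array; 0 saturated) were left out. Processed signals were set to at least 1, log2-transformed, quantile-normalised over 9 arrays and averaged over spots of a probe (limma 3.58.1, R 4.3.3). A probe was above background when over 0.5 of its spots were flagged so, and was tested when this held for every array of 1 group or more. The 3 group means were fitted with lmFit and eBayes. Gene names came by accession from RefSeq genes of GRCr8, used for names and promoter windows only, and gave 16968 probes a name. The array files hold no probe sequences, and probe positions were not used.

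Named were all members, every pathway gene called in at least 1 comparison, the uncalled gene of each list with the smallest unadjusted p, and the 2 genes most like each called member. Members and lists were chosen with earlier results of these data known. Replicates are separate rats; the study text gives larger groups, and how the 3 were picked was not given. Their number limits the precision: 0.1 is the smallest p of an exact two-sided permutation test of 3 against 3. On simulated arrays with 200 of 25369 probes changed, 79%, 89% and 85% of 3-fold and 29%, 31% and 38% of 1.8-fold changes were called, with 3, 12 and 6 false calls, in the comparisons of TBI with control, of HSC + TBI with control and of HSC + TBI with TBI. The simulated noise was independent between arrays, with the same spread in all groups and no slide effect, so these rates may not hold for the measured arrays.

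Alternatives were the 75th percentile shift, normexp background correction, the deposited log2 values, other filters, outliers kept, 2-group fits, the methods' t-test, no minimum fold, replicate and slide blocks, the mean over a gene's probes, and each rat left out.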

Additional observations from a re-analysis of the deposited data

How the results depend on the processing

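Of 22 alternatives, 9 left out 1 rat. None turned the direction of a called difference. The causes of the shifts below were not tested. The members called after TBI (2) became 0 by the methods' t-test after adjustment and 4 with slide as a random block, and 1 to 3 without 1 rat. With the mean over a gene's probes they became 3, Slc2a2 being added. For HSC + TBI against control the member count of 1 became 2 with the 75th percentile shift or with the mean over a gene's probes, G6pc being added in both, 0 by the adjusted methods' t-test, and 0 to 1 without 1 rat. Between HSC + TBI and TBI the 0 members became 1 with slide as a random block, and 0 to 1 without 1 rat.

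The 11 pathway genes called after TBI became 7 with normexp, 6 with no filter on dim probes, 3 with only the compared groups in the fit, 0 by the adjusted methods' t-test, 17 with slide as a random block, and 2 to 11 without 1 rat, the lowest without control rat 3. After HSC + TBI the 2 against control became 13 by the unadjusted and 1 by the adjusted methods' t-test, 4 with the replicate block, 13 with slide as a random block, and 0 to 5 without 1 rat. Between HSC + TBI and TBI the 0 became 6 by the unadjusted methods' t-test, 1 with the replicate block, 7 with slide as a random block, and 0 to 3 without 1 rat, the highest without TBI rat 1.

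The labels do not say what a shared replicate number marks. Deviations of same-numbered rats correlated at 0.0974 to 0.191 between control and TBI, where each rat correlated best with its own number, at 0.00088 to 0.0148 between control and HSC + TBI, and at -0.143 to -0.0162 between TBI and HSC + TBI. Control and TBI rats with different numbers correlated at -0.12 to 0.0172. The main fit did not pair the rats, and whether the numbers mark a shared factor was not tested. The replicate block changed no member count. After TBI it gave 8 called pathway genes, as Gys2, Eno3, Pfkm and Cebpb were lost and another gene was called lower. Over the whole array it brought the called probes from 1839, 820 and 202 to 1575, 780 and 97. The slide block had a consensus correlation of -0.33, below 0, and called 4528, 2573 and 2256 probes. Each slide lay within 1 group, so this block cannot separate slide from group, and its higher counts are not read as stronger results. With the 75th percentile shift, 57.5% of the probes called after TBI were higher (48.9% with quantiles), and 13.7% of those between HSC + TBI and TBI (29.2%). Probes near background, such as those of Pfkfb3 and the dimmer Irs2 probes, are limited by their signal.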
